A study of Mus musculus with 4 samples.

Results

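The glutathione transferases Gsta3, Gsta4, Gstm1, Gstm2, Gstm5, Gstp1, Gstt1, Gsto1 and Gstk1 and the microsomal transferase Mgst1 were followed in the aorta of apoE-/- mice of the strains C3H/HeJ (C3H below) and C57BL/6. Every probe set whose platform annotation names exactly 1 of these 10 genes was taken, which gave 16 of the 22626 probe sets on the array, for 10 of the 12393 genes that a probe set names alone. Each array read total RNA from the aorta of 6-week-old females, and each of the 4 groups has 1 array. The groups are C3H on Western diet and C3H on chow, and C57BL/6 on Western diet and C57BL/6 on chow. All animals lacked apolipoprotein E, which clears lipoprotein remnants, and were weaned to chow at 3 weeks. Western diet began at 4 weeks of age and was eaten for 2 weeks. The labels call the chow groups hyperlipidemic and the Western diet groups extremely hyperlipidemic, and wild-type animals are not analysed here. With 1 array a group there is no replicate error, so differences between arrays are given as sizes, whose precision is limited by the number of arrays.

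Glutathione transferases join the tripeptide glutathione to reactive, electrophilic compounds, among them aldehydes that form when lipids are oxidized, and so make them soluble for export. The cytosolic enzymes fall into classes named alpha (Gsta), mu (Gstm), pi (Gstp), theta (Gstt) and omega (Gsto), while the kappa enzyme sits in mitochondria and peroxisomes and Mgst1 in membranes of the endoplasmic reticulum and mitochondria. Many of their genes are known targets of the transcription factor Nrf2, which answers oxidative and electrophilic stress through the antioxidant response element. In RefSeq's mouse annotation Gstm2 and Gstm1 lie next to each other on chromosome 3, between Gstm3 and Gstm4. Gstm5 lies beside Gstm7 on the same chromosome, Gstt1 between Gstt3 and Gstt4 on chromosome 10, Gstp1 beside Gstp2 on chromosome 19, and Gsta4 beside Gsta1 on chromosome 9.

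Promoters of 9 of the 10 genes, 11 windows of 300 bases in all, were found in RefSeq's table of GRCm38.p6, and Gsta4 was not. They were searched on both strands for the core of the antioxidant response element, TGACNNNGC, and for the AP-1 site TGACTCA, 2 motifs that overlap where an AP-1 site is followed by GC. The core stood in 3 of the 11 windows (Gsta3, Gstm5 and Mgst1), against 12.4% of all 32851 promoters of that length. The AP-1 site stood in 2 (Gstm5 and Gstp1), against 5.2% of all promoters. The 100 bases before the most upstream listed start are shown for Gstm1 and Gstt1, which were lower in C3H on chow, and for 3 genes with a match inside that stretch, whose motif is in capitals. The stretches lie at chr3:108017974-108018073 (Gstm1, minus strand), chr3:107895754-107895853 (Gstm5, plus strand), chr10:75797732-75797831 (Gstt1, minus strand), chr19:4037913-4038012 (Gstp1, minus strand) and chr6:138140427-138140526 (Mgst1, plus strand).
Gstm1: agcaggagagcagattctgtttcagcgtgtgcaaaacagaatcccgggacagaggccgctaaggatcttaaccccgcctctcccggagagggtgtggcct
Gstm5: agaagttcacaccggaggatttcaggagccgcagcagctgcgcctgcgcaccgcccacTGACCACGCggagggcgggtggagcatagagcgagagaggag
Gstt1: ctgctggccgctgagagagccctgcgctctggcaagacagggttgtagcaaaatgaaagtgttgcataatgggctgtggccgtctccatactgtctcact
Gstp1: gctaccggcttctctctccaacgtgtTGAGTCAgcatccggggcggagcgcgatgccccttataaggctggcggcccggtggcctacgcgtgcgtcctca
Mgst1: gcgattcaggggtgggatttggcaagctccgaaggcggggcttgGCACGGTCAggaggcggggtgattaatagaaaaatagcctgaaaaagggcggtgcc
Counted from the listed start, the core lay at -42 to -34 in Gstm5 and at -56 to -48 on the opposite strand in Mgst1, and the AP-1 site lay at -74 to -68 on the opposite strand in Gstp1. A match describes letters only, and neither motif was found in the Gstm1 and Gstt1 windows.

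Signals are linear intensities after quantile normalization, and a signal at or under 83.6, the 40th percentile of all values, is treated as a bound and called under the floor. Of the 16 probe sets, 12 exceeded the floor on all 4 arrays and 2, both of Gsta3, on 0. Markers of the aortic wall were present, with all 9 smooth muscle markers over the floor on every array and 8 or 9 of 9 endothelial ones. The C3H chow array stood somewhat apart. Its correlations with the other arrays over 8740 probe sets were 0.868 to 0.904, where the other pairs gave 0.913 to 0.931, and signal at the 3' end of actin exceeded that at its 5' end 2.28-fold there and 1.63-fold to 1.83-fold elsewhere. The strain difference on chow and the diet response in C3H rest on that array, and the strain difference on Western diet and the diet response in C57BL/6 do not. The difference of the diet responses and the additive limma fit below use all 4 arrays, that one included.

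**Figure D1:**
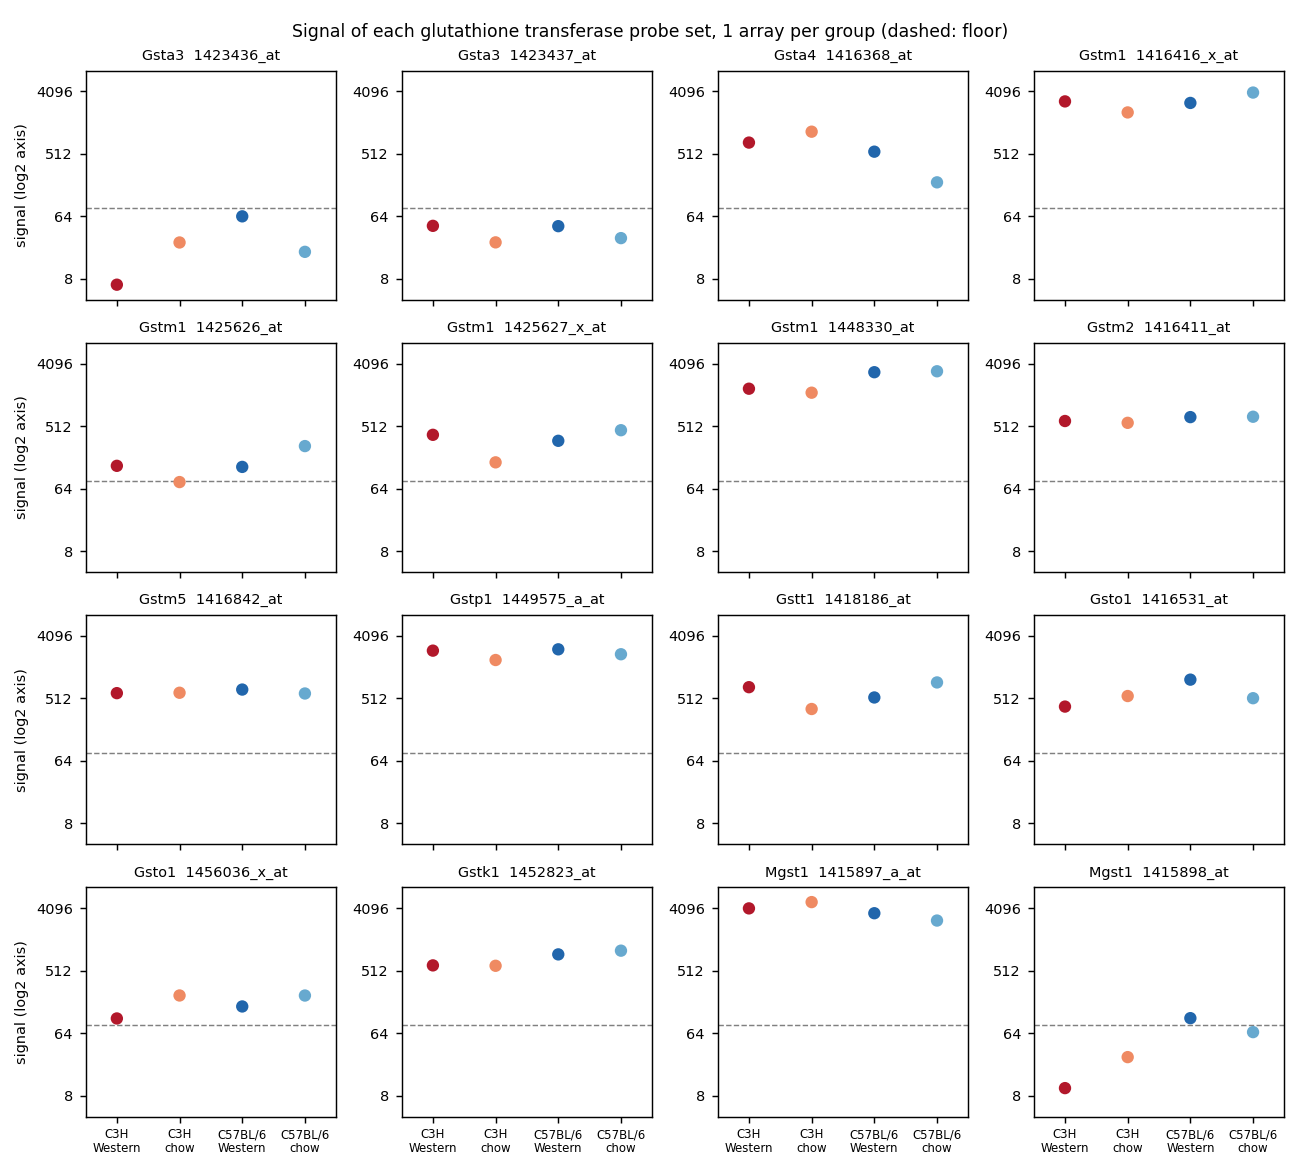
Signal of each of the 16 probe sets on the 4 arrays (1 point per array, log2 axis), with the floor of 83.6 as a dashed line. Gsta4 is lowest on C57BL/6 chow at 199, the points of Gstm2 and Gstm5 are nearly level, and both Gsta3 probe sets lie under the floor throughout.

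Gsta4, the alpha-class enzyme known for its activity on hydroxynonenal, a product of lipid peroxidation, had the widest range of the 12 probe sets over the floor on all arrays. Its signal was 747 on C3H Western and 1074 on C3H chow, against 552 on C57BL/6 Western and 199 on C57BL/6 chow. C57BL/6 chow was far the lowest array. On chow Gsta4 was 5.4-fold higher in C3H (log2 2.43), and on Western diet 1.35-fold higher (log2 0.44). With Western diet it was 2.77-fold higher in C57BL/6 (log2 1.47) and 1.44-fold lower in C3H (log2 -0.52).

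An additive limma fit took strain and diet as terms over the 4 arrays and left their unreplicated interaction as the residual. It gave a strain difference for Gsta4 of log2 1.43 ± 0.42 (SE), which averages the unlike differences of 2.43 on chow and 0.44 on Western diet. Its p was 0.00327 in limma before and 0.358 after Benjamini-Hochberg adjustment over 14915 probe sets. The adjusted p in limma ranged from 0.0305 to 0.911 over 6 alternatives, and it passed 0.05 only when dim probe sets were kept in the fit. The error behind such p-values has 1 residual degree of freedom, and a prior of 17.3 drawn from all probe sets tested. It is thus mostly the spread typical of probe sets of like signal and not that of Gsta4's own arrays. Without the trend of variance on mean signal the SE of Gsta4 was 0.72, which still draws on the other probe sets and is not that of Gsta4 alone. All of this spread is between single arrays and may be technical. The smallest two-sided p that an exact permutation of 2 and 2 arrays allows is 0.333.

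Fat markers of the tissue were read on the same arrays. Of 8 adipocyte markers on the array, such as Adipoq and Fabp4, 7 were above the floor on every array, with Lep under it, and their summed signal was 54294 on C3H Western and 70662 on C3H chow, against 51405 on C57BL/6 Western and 41899 on C57BL/6 chow. All 6 brown adipocyte markers on the array were above the floor throughout, with sums of 53886 and 80672 on C3H Western and chow, against 46833 and 40699 on C57BL/6 Western and chow. For both lists C3H chow was the highest and C57BL/6 chow the lowest array by summed signal, as for Gsta4. The Gsta4 difference of log2 2.43 on chow compares with list medians of 0.79 and 1.61, and that of 0.44 on Western diet with 0.03 and 0.12. For diet, the Gsta4 difference of log2 1.47 in C57BL/6 compares with list medians of 0.5 and 0.28, and that of -0.52 in C3H with -0.44 and -1.71. The part of the fat markers in the Gsta4 result was not tested, and in bulk tissue fewer cells of a type and less RNA per cell cannot be told apart.

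By a fixed rule the genes nearest to Gsta4 were sought among 5637 other genes above the floor on all 4 arrays, by the Euclidean distance between centred log2 profiles over the 4 arrays. They were Akap1, a mitochondrial anchor of protein kinase A, at a distance of 0.229, then Card10 at 0.345, the glycolytic enzyme gene Pgam1 at 0.458, the serine synthesis gene Psph at 0.459 and the mitochondrial protease gene Lonp1 at 0.472. Akap1 had signals of 860 on C3H Western and 1318 on C3H chow, against 705 on C57BL/6 Western and 285 on C57BL/6 chow. With 4 points a profile, many genes can lie this near, and the distances are a description only.

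Gsta3, the alpha-class enzyme that in mice detoxifies aflatoxin, was under the floor on every array by both probe sets. They gave 6.6 and 46.8 on C3H Western and 26.9 and 27.0 on C3H chow, against 64.2 and 46.3 on C57BL/6 Western and 19.7 and 31.1 on C57BL/6 chow. No fold is drawn from such signals.

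Gstm1, the main mu-class enzyme of mouse liver, has 4 probe sets, and all were lower in C3H on chow. By the probe set 1448330_at its signal was 1783 on C3H Western and 1562 on C3H chow, against 3089 on C57BL/6 Western and 3187 on C57BL/6 chow. By this probe set C3H was lower by 2.04-fold on chow (log2 -1.03) and 1.73-fold on Western diet (log2 -0.79). The limma strain difference of this probe set was log2 -0.91 ± 0.30 (SE), with an unadjusted p of 0.00731 and an adjusted p of 0.522 in limma (0.347 to 0.911 over 5 alternatives).

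The other Gstm1 probe sets were lower in C3H on chow and within log2 0.29 of 0 between strains on Western diet. The probe set 1416416_x_at had 2942 on C3H Western and 2039 on C3H chow, against 2796 on C57BL/6 Western and 3950 on C57BL/6 chow. The probe set 1425627_x_at had 384 on C3H Western and 154 on C3H chow, against 315 on C57BL/6 Western and 448 on C57BL/6 chow. Both were lowest on C3H chow and highest on C57BL/6 chow, by 1.94-fold and 2.91-fold, and on Western diet they differed between strains by log2 0.07 and 0.29. The dim probe set 1425626_at had 137 on C3H Western and 79.8, under the floor, on C3H chow, against 132 on C57BL/6 Western and 264 on C57BL/6 chow, which places C3H lower on chow by at least 3.16-fold. In Affymetrix naming, an x in the probe set's suffix marks probes that may also bind other transcripts, and mu-class genes are close relatives, so signals of the x sets may be shared among them.

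The 4 Gstm1 probe sets therefore disagreed on Western diet, where their strain differences ran from log2 -0.79 to 0.29. With Western diet they were lower in C57BL/6, by log2 -0.05 to -1.0, where the smallest of these turned to 0.05 and 0.14 with deposited values and with equal array medians. In C3H the 3 probe sets measured on both arrays were higher with Western diet, by log2 0.19 to 1.32. For scale, probe sets of the same gene differed from each other on the whole array with a pooled SD of log2 0.616 for strain on chow, 0.524 for strain on Western diet, 0.579 for diet in C3H and 0.506 for diet in C57BL/6.

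The other mu-class genes were level. Gstm2 had 609 on C3H Western and 573 on C3H chow, against 693 on C57BL/6 Western and 702 on C57BL/6 chow. Gstm5 had 612 on C3H Western and 620 on C3H chow, against 689 on C57BL/6 Western and 604 on C57BL/6 chow. The whole range over the 4 arrays was 1.22-fold for Gstm2 and 1.14-fold for Gstm5, so no order of the arrays is drawn from either.

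Gstt1, the theta-class enzyme known for breaking down halogenated solvents, differed with diet in opposite directions in the strains. Its signal was 746 on C3H Western and 361 on C3H chow, against 529 on C57BL/6 Western and 873 on C57BL/6 chow. C3H chow was the lowest and C57BL/6 chow the highest array. Western diet went with a 2.07-fold higher signal in C3H (log2 1.05) and a 1.65-fold lower one in C57BL/6 (log2 -0.72). Gstt1 was 2.42-fold lower in C3H on chow (log2 -1.28) and 1.41-fold higher on Western diet (log2 0.49), and its limma adjusted p was 0.901 for strain.

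By summed signal, matrix and contractile markers had the same lowest and highest arrays as Gstt1. The summed signal of 12 fibroblast and matrix markers was 45565 on C3H Western and 23845 on C3H chow, against 34198 on C57BL/6 Western and 97187 on C57BL/6 chow, and 9 smooth muscle markers summed to 73374 and 45696 on C3H Western and chow, against 77412 and 103416 on C57BL/6 Western and chow. No smooth muscle marker was under the floor on any array, and 11 of 12 matrix markers were above it on C3H chow. Relative to the mean of the 4 arrays, Gstt1 stood at log2 0.33 and -0.72 on C3H Western and chow, against -0.17 and 0.56 on C57BL/6 Western and chow. The median matrix marker stood at 0.09 and -0.87, against -0.32 and 0.79, and the median smooth muscle marker at -0.08 and -0.46, against 0.05 and 0.5. Not every marker had this order. Des was lowest on C3H Western (286) and highest on C57BL/6 Western (501). Myocd was lowest on C3H Western (256), Smtn highest on C57BL/6 Western (1360) and Lum highest on C3H Western (1356). Cnn1 was equal on C3H Western and C57BL/6 chow (6948). The part of the matrix and contractile markers in the Gstt1 and Gstm1 values was not tested.

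**Figure D2:**
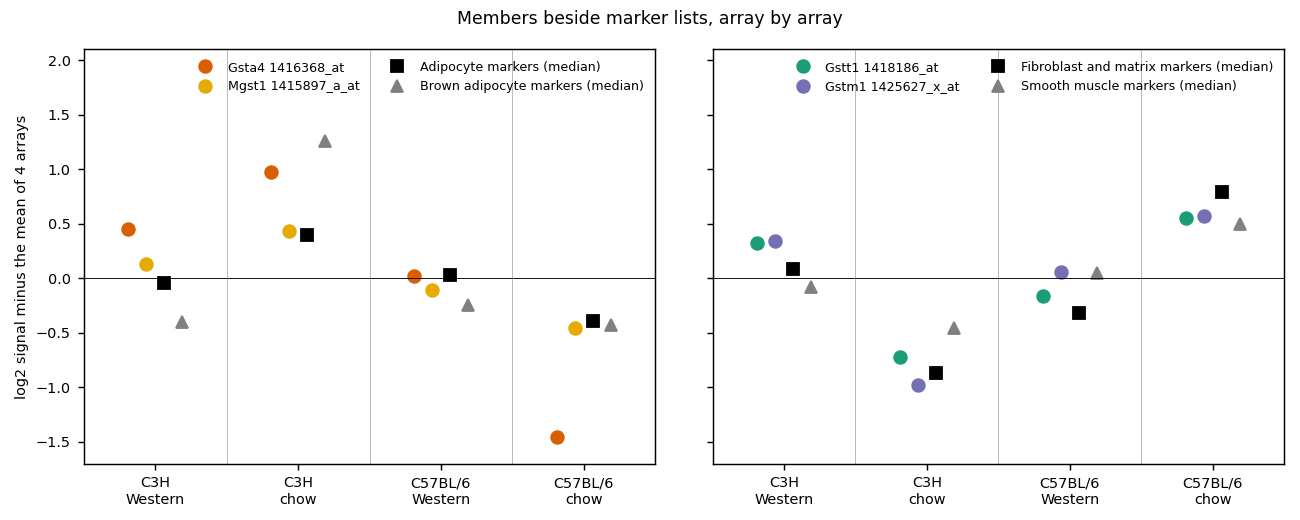
Log2 signal minus the mean of the 4 arrays, for Gsta4 and Mgst1 beside the medians of adipocyte and brown adipocyte markers (left) and for Gstt1 and the Gstm1 probe set 1425627_x_at, the one above the floor throughout with the widest range, beside fibroblast and matrix and smooth muscle markers (right). On C3H chow Gsta4 is at 0.98 with the fat markers above 0, and Gstt1 at -0.72 with the matrix and muscle markers below 0. On C3H Western Gsta4 is at 0.46, with the adipocyte and brown adipocyte medians at -0.04 and -0.4. Gstt1 is at 0.33 on that array, with the matrix and smooth muscle medians at 0.09 and -0.08.

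Gsto1, the omega-class enzyme that reduces dehydroascorbate and removes glutathione from proteins, was lower in C3H on Western diet by both of its probe sets. The probe set 1416531_at had 391 on C3H Western and 556 on C3H chow, against 958 on C57BL/6 Western and 517 on C57BL/6 chow. It was highest on C57BL/6 Western, and the strain difference there was 2.45-fold (log2 -1.29). The probe set 1456036_x_at had 105 on C3H Western and 225 on C3H chow, against 156 on C57BL/6 Western and 224 on C57BL/6 chow, a difference of log2 -0.58 on Western diet.

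On chow neither Gsto1 probe set differed between strains by more than log2 0.10. With Western diet both were lower in C3H, by log2 -0.51 and -1.10, while in C57BL/6 they went opposite ways, by log2 0.89 and -0.52. The direction in C57BL/6 is therefore not settled by these data.

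Gstp1, the pi-class enzyme, which also binds the stress kinase JNK, varied little. It had 2515 on C3H Western and 1841 on C3H chow, against 2628 on C57BL/6 Western and 2231 on C57BL/6 chow. Western arrays exceeded chow arrays by 1.37-fold in C3H and 1.18-fold in C57BL/6. That sign held in both strains with deposited values, with equal array medians and with cyclic loess. The remaining alternatives only keep or drop a probe set, so they could not have changed it.

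Gstk1, the kappa-class enzyme, was lower in C3H on both diets. It had 612 on C3H Western and 604 on C3H chow, against 882 on C57BL/6 Western and 999 on C57BL/6 chow. C3H was lower by 1.65-fold on chow (log2 -0.73) and 1.44-fold on Western diet (log2 -0.53), and limma gave log2 -0.63 ± 0.32 (SE) with an adjusted p of 0.847. Diet differences were at most 1.13-fold in either strain. Heart muscle markers also differed between the strains on both diets, with summed signals of 552 and 448 on C3H Western and chow, against 12446 and 15842 on C57BL/6 Western and chow. Of these 9 markers, all were above the floor on both C57BL/6 arrays and 2 on each C3H array. Their part in the Gstk1 and Gstm1 1448330_at differences was not tested.

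Mgst1, a membrane enzyme that also reduces lipid peroxides, was highest on C3H chow. By the probe set 1415897_a_at it had 4079 on C3H Western and 5028 on C3H chow, against 3472 on C57BL/6 Western and 2721 on C57BL/6 chow. The order of the 4 arrays was that of Gsta4, with a smaller range of 1.85-fold. C3H was higher by 1.85-fold on chow (log2 0.89) and 1.17-fold on Western diet (log2 0.23), and the limma adjusted p was 0.847.

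The second Mgst1 probe set, 1415898_at, was above the floor on 1 array only. It had 10.3 on C3H Western and 28.9 on C3H chow, against 106 on C57BL/6 Western and 66.4 on C57BL/6 chow. Its strain bound, at least 1.26-fold lower in C3H on Western diet, points against the first probe set, so the strain difference of Mgst1 rests on the bright set.

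**Figure D3:**
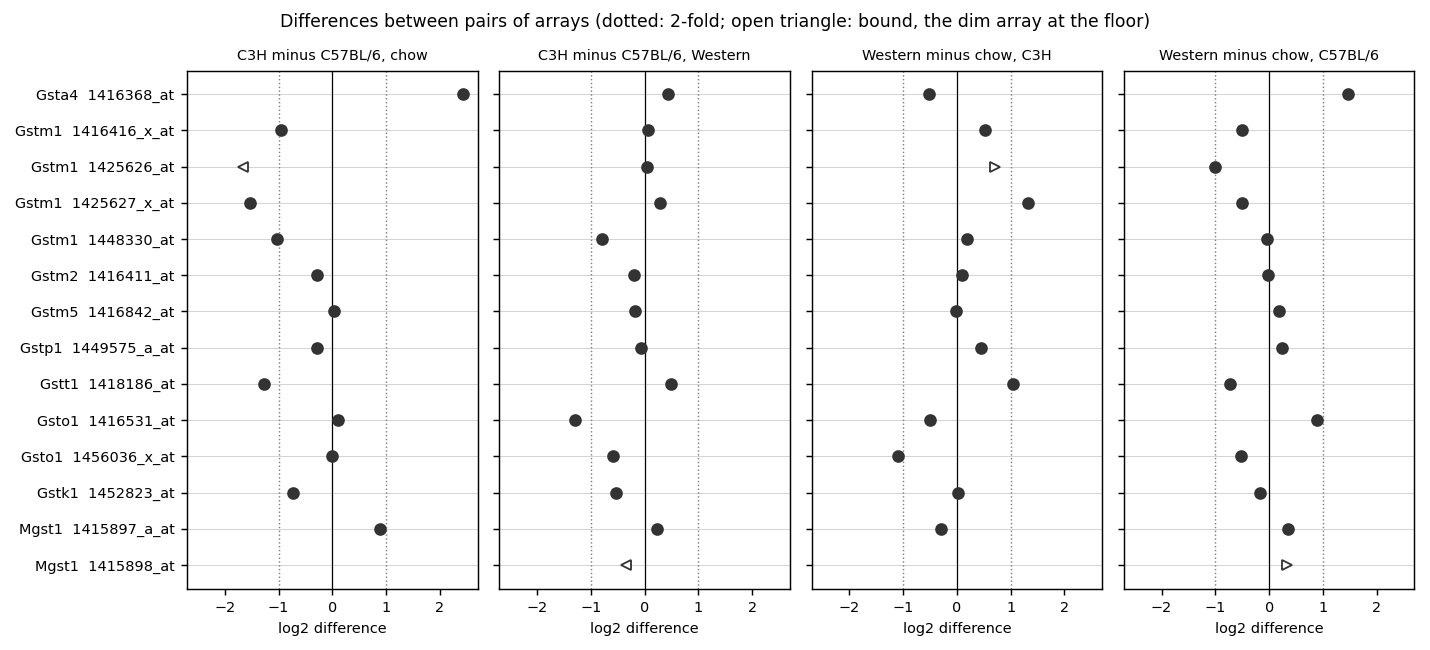
Log2 differences of the 14 probe sets that exceeded the floor on 1 array or more, for strain on chow and on Western diet and for diet in C3H and in C57BL/6 (filled points: both arrays above the floor; open triangles: bounds; dotted lines: 2-fold). On chow Gsta4 lies at 2.43 while all 4 Gstm1 probe sets and Gstt1 lie below 0.

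Counted by comparison, 4 of the 12 probe sets measured on chow differed at least 2-fold between strains, where 17.1% of all measured probe sets did (8.2% higher and 8.94% lower in C3H). They were Gsta4, higher in C3H, and Gstt1 and the Gstm1 sets 1448330_at and 1425627_x_at, lower in C3H. Several probe sets share a gene, and by 1 probe set per gene the count was 2 of 9. The median over the 12 was log2 -0.28, against 0.03 over all probe sets.

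On Western diet 1 of 13 differed at least 2-fold between strains, Gsto1 by 1416531_at, lower in C3H, where 8.41% of all did (4.17% higher and 4.24% lower). The median was log2 -0.06, against 0.01 over all probe sets. Gsta4, Gstt1 and the x-suffixed Gstm1 sets, which were past or close to 2-fold on chow, were within log2 0.49 of 0 on Western diet.

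With Western diet 3 of 12 differed at least 2-fold in C3H, where 12.3% of all did (6.4% higher and 5.95% lower). These were Gstt1 and Gstm1 1425627_x_at, higher, and Gsto1 1456036_x_at, lower. In C57BL/6 1 of 13 did, Gsta4, which was higher, where 7.76% of all did (3.79% higher and 3.97% lower). Medians were log2 0.05 in C3H and -0.05 in C57BL/6, against 0 over all probe sets in each. None of these shares was tested.

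The responses of the strains to diet differed at least 2-fold for 5 of the 12 measured on every array, where 25.4% of all 8740 did (13.0% more positive and 12.4% more negative in C3H). The response in C3H was the more positive for Gstt1 (log2 1.77) and for Gstm1 by 1425627_x_at (1.83) and 1416416_x_at (1.03), and the more negative for Gsta4 (-2.0) and Gsto1 by 1416531_at (-1.4). Each is the difference of single-array differences and no test of it exists with 1 array a group. Signs were opposite in the strains for each of these 5. Gstp1 was higher and Gsto1 1456036_x_at lower on the Western array of both strains.

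**Figure D4:**
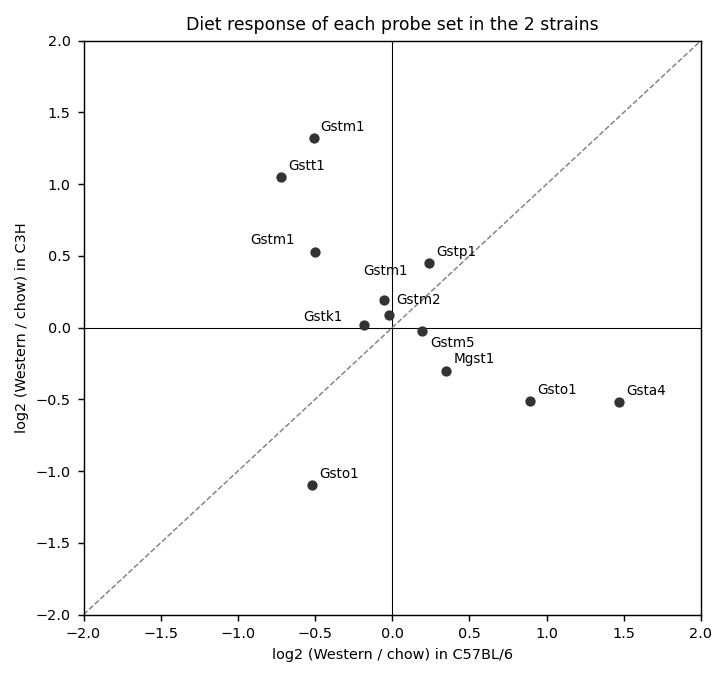
Diet response (log2 of Western over chow) of the 12 probe sets measured on every array, in C57BL/6 on the x axis and in C3H on the y axis, with the line of equal response dashed. Gstt1 and Gstm1 lie upper left, Gsta4 lower right at 1.47 in C57BL/6 and -0.52 in C3H, and Gstp1 alone clearly upper right.

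In the additive limma fit 0 of the 13 member probe sets tested passed an adjusted p of 0.05 for strain, where 0.382% of 14915 passed, and 2 had an unadjusted p under 0.05 (Gsta4 and Gstm1 1448330_at), where 5.85% of all did. For diet 0 of 13 passed, where 0.0% of all passed. None of the 13 had an unadjusted diet p under 0.05, where 2.46% of all did, and their lowest was 0.241, at Gsto1.

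Of 19 listed transferases and related membrane enzymes outside the 10 genes 14 were on the array. Between 8 and 10 of them were above the floor on each array, and between 6 and 8 were measured in any comparison. On chow, of 7 measured, 2 were higher in C3H by 1.5-fold or more and 4 lower (median log2 -0.64), where 41.3% of all probe sets passed that fold (21.1% higher and 20.1% lower), and on Western diet 0 were higher and 1 lower of 6 (27.1% of all, 13.5% higher and 13.6% lower). With Western diet 1 was higher and 0 lower of 8 in C3H (34.6% of all, 17.5% higher and 17.1% lower), and 1 was higher and 1 lower of 7 in C57BL/6 (28.0% of all, 13.9% higher and 14.1% lower). Gstz1, the zeta-class enzyme of tyrosine breakdown, had 922 on C3H Western and 1132 on C3H chow, against 658 on C57BL/6 Western and 535 on C57BL/6 chow, and was 2.11-fold higher in C3H on chow. Alox5ap, the leukotriene helper protein of the same membrane family as Mgst1, had 338 on C3H Western and 89.7 on C3H chow, against 243 on C57BL/6 Western and 261 on C57BL/6 chow. Its signal on C3H Western was 3.77-fold that on C3H chow, its strain difference on chow was 2.91-fold with C3H the lower, and both folds rest on the C3H chow value just above the floor. Gstm3, next to Gstm2 in the mu cluster, was low on C57BL/6 Western alone, where its signal of 66.2 lay under the floor, by a probe set whose s suffix marks probes shared with other transcripts. It had 255 on C3H Western and 171 on C3H chow, against 280 on C57BL/6 chow, so it was higher in C3H by at least 3.05-fold on Western diet, and with Western diet lower in C57BL/6 by at least 3.35-fold. Gstm4, next to Gstm1, was low on C57BL/6 chow alone, with 170 on C3H Western and 185 on C3H chow, against 211 on C57BL/6 Western and 53.9, under the floor, on C57BL/6 chow. It was higher in C3H by at least 2.22-fold on chow, and with Western diet higher in C57BL/6 by at least 2.52-fold. Gstt3, next to Gstt1, was under the floor on both C3H arrays at 25.2 and 24.5, against 115 and 177 on C57BL/6 Western and chow, and so lower in C3H by at least 2.11-fold on chow.

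Genes that make, recycle and use glutathione formed a second list, with 20 of 25 on the array. On chow 6 of 14 measured were higher in C3H by 1.5-fold or more and 0 lower (median log2 0.25), where 21.1% of all probe sets were higher and 20.1% lower. Between strains on Western diet 3 of 15 were higher and 3 lower (median -0.14), where 13.5% and 13.6% of all were. In C3H 2 of 14 were higher and 7 lower with Western diet (median -0.54), where 17.5% of all were higher and 17.1% lower. In C57BL/6 4 of 14 were higher and 1 lower (median 0.27), where 13.9% and 14.1% of all were. The medians over all probe sets were at most 0.03 from 0. Gclm, the modifier subunit of the rate-limiting enzyme of glutathione synthesis, had 344 on C3H Western and 133 on C3H chow, against 258 on C57BL/6 Western and 129 on C57BL/6 chow. Western diet thus went with a signal 2.59-fold higher in C3H and 2.0-fold higher in C57BL/6. Gsr, which regenerates reduced glutathione, had 690 on C3H Western and 215 on C3H chow, against 311 on C57BL/6 Western and 292 on C57BL/6 chow, and was high on C3H Western alone, 3.21-fold above C3H chow.

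Glo1, which uses glutathione to clear methylglyoxal, had 1541 on C3H Western and 1089 on C3H chow, against 437 on C57BL/6 Western and 647 on C57BL/6 chow, so it was higher in C3H by 3.53-fold on Western diet and 1.68-fold on chow. Oplah and Glrx, a recycling enzyme and a glutaredoxin, were 2.76-fold and 2.69-fold higher in C3H on chow, and Slc7a11, which imports cystine for glutathione synthesis, was higher in C3H by at least 3.05-fold on chow and at least 1.63-fold on Western diet. Dpep1, a dipeptidase of glutathione breakdown, was 2.64-fold lower in C3H on Western diet. The exporter gene Abcc5 was 3.59-fold lower with Western diet in C57BL/6 and, on chow, lower in C3H by at least 5.39-fold.

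Of the Nrf2 pathway list 22 of 25 genes were on the array. On chow 5 of 18 measured were higher in C3H by 1.5-fold or more and 1 lower, where 21.1% of all probe sets were higher and 20.1% lower, and the list's median ran the other way (log2 -0.09). On Western diet 7 of 22 were higher in C3H and 1 lower (median 0.17), where 13.5% and 13.6% of all were. With Western diet 4 of 19 were higher and 0 lower in C3H (median 0.24), where 17.5% of all were higher and 17.1% lower. In C57BL/6 3 of 19 were higher and 2 lower (median -0.06), where 13.9% and 14.1% of all were. The gene of Nrf2 itself, Nfe2l2, had 407 on C3H Western and 452 on C3H chow, against 473 on C57BL/6 Western and 574 on C57BL/6 chow, and Keap1, its inhibitor, 332 on C3H Western and 313 on C3H chow, against 312 on C57BL/6 Western and 353 on C57BL/6 chow. Nqo1, a quinone reductase gene and classic Nrf2 target, had 182 on C3H Western and 24.9 on C3H chow, against 176 on C57BL/6 Western and 73.7 on C57BL/6 chow. Both chow arrays were under the floor, so Nqo1 was higher with Western diet by at least 2.18-fold in C3H and at least 2.11-fold in C57BL/6. Mafg, a small Maf partner of Nrf2, was likewise under the floor on both chow arrays and higher with Western diet by at least 2.33-fold in C3H and at least 1.85-fold in C57BL/6. Among other targets Hmox1, the heme-degrading enzyme gene, was 2.26-fold lower in C3H on Western diet, and Txnrd1, the thioredoxin reductase gene, was 2.0-fold higher in C3H on chow. Pgd, of the pentose phosphate pathway, was 2.17-fold higher in C3H on chow, and Blvrb, a biliverdin reductase gene, 2.06-fold higher in C3H on Western diet.

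Hepatocytes are rich in several of these transferases, and hepatocyte markers were therefore read on the same arrays. Of 7 hepatocyte markers on the array, 5 and 3 were above the floor on C3H Western and chow, against 2 and 2 on C57BL/6 Western and chow, with summed signals of 2467 and 1788, against 4029 and 1738. Most of the sum on every array was Cyp2e1, with 1804 and 1441 on C3H Western and chow, against 3737 and 1432 on C57BL/6 Western and chow. Alb was under the floor on both C57BL/6 arrays and Apoa1 and Ttr on all 4. Their part in the members' values was not tested.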

How the data were processed

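The deposited values are linear intensities per probe set from a 1-colour array, made per the labels' protocols from 8 ug of Trizol-extracted total RNA as biotin-labelled cRNA. The sources used here give neither the software nor the background step, and do not state whether RNA was pooled. The authors' columns were already on a common scale, with medians of 110.3 to 128.1.

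Of 22690 rows, 64 controls were left out and log2 values were quantile normalized. Genes came from the platform annotation (20380 probe sets name 1 gene), and sequences and neighbours from RefSeq GRCm38.p6. Members and gene lists were chosen with earlier results of these data known. Named genes are all members, and of the 3 pathway lists those at least 2-fold different, bounds included, in any of the 4 comparisons, the 8 with the largest folds where more passed, each by its brightest probe set (mean log2 signal). A fold against a signal under the floor raises it to the floor and is given as at least.

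The additive limma fit (3.58.1, R 4.3.3, eBayes with a mean trend) used the 14915 probe sets that exceeded the floor on 2 arrays or more. It had 1 residual degree of freedom and a prior of 17.3. The fit was also run on simulated data, and no result here rests on that run. Python 3.11.15, numpy 2.4.6, pandas 2.3.3 and matplotlib 3.10.9 did the rest. Alternatives were 3 other scalings (cyclic loess, deposited, equal medians), the floor moved to percentile 25 or 60, 1.5-fold and 3-fold, 1 probe set per gene, and limma without a filter or without a trend.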

Additional observations from a re-analysis of the deposited data

Results flagged for a closer look

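Gstt1 stood out because its diet response had opposite directions in the strains, each at least 1.5-fold (2.07-fold higher in C3H and 1.65-fold lower in C57BL/6). The response in C3H minus that in C57BL/6 was log2 1.77. It rests in part on the C3H chow array, which stood somewhat apart. Of all probe sets measured on every array, 25.4% passed 2-fold on the same measure. The difference was not tested, since each response is the difference of 2 single arrays.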

How the results depend on the processing

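Under the 3 other scalings each of 50 member values (a probe set in a comparison) moved by less than 1.5-fold. Of these, 8 changed sign, all within log2 0.1 of 0 as reported. Other floors and 1 probe set per gene only keep or drop a probe set, so they cannot move such a value. Counts moved more. Of probe sets at least 2-fold different between strains on chow (4), 2 were left by 1 probe set per gene, and there were 7 at 1.5-fold and 1 at 3-fold. On Western diet (1) there were 2 at 1.5-fold and 0 at 3-fold. For diet in C3H (3) there was 1 with the floor at the 60th percentile, 1 by 1 probe set per gene and 0 at 3-fold. For diet in C57BL/6 (1, higher) there were 2 with deposited values and with cyclic loess (1 higher and 1 lower), 3 with equal medians (2 higher and 1 lower), 4 at 1.5-fold and 0 at 3-fold. The added lower call was Gstm1 1425626_at, at log2 -1.0 as reported, and the added higher one Gsto1 1416531_at, at 0.89 as reported and 1.0 with equal medians. Differences of responses past 3-fold numbered 3, against 5 past 2-fold. Without a filter on dim probe sets the strain term of limma passed 1 member, Gsta4 (adjusted p = 0.0305), in place of 0. Equal medians moved the median of all probe sets for diet in C3H to log2 0.11 and their split at 2-fold to 865 higher and 455 lower, against 684 and 635. No paired analysis was possible because each group has 1 array.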
